A study of Homo sapiens with 4 samples.

Results

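The genes described here are 9 members of the NF-kB pathway, of 33538 genes in the count tables: the subunits NFKB1, NFKB2, RELA and RELB, the inhibitors NFKBIA, NFKBIZ and TNFAIP3, and the target genes BIRC3 and ICAM1. They were chosen by name, and each is listed once in the tables. The cells were HCEC 1CT, a human colonic epithelial progenitor line immortalised with TERT and CDK4, grown with EGF, hydrocortisone, insulin, transferrin, selenite and low serum, and kept in puromycin after transduction. One culture carried an shRNA against APC, the tumour suppressor that holds beta-catenin in check (shAPC), and the control culture carried a scrambled shRNA (shScr). Single-cell RNA-seq was carried out 3 and 7 days after transduction, which gave 4 libraries, 1 per group. Values are listed for shScr and then shAPC at day 3, followed by shScr and then shAPC at day 7.

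With 1 library per group no difference between conditions could be tested. The intervals below are 95% counting intervals and hold no spread between cultures, and the effect of the shRNA cannot be told apart from that of the library. The sum over a library also cannot tell fewer expressing cells from less RNA per cell.

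NF-kB is a family of dimeric transcription factors that wait in the cytoplasm, bound by inhibitors of the IkB type. Signals from TNF, IL-1 or pattern receptors activate the IKK kinase, which marks the inhibitor for destruction and lets dimers such as p50 with RELA enter the nucleus. A slower arm processes p100 to p52, which pairs with RELB. Both arms switch on genes for their own inhibitors, so a rise in NFKBIA or TNFAIP3 RNA is a classic sign of the feedback, and in intestinal epithelium the pathway drives chemokines, adhesion molecules and survival genes.

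In the RefSeq promoter table (GRCh38.p14), 8 of the 9 members, all but RELB, had at least 1 window, 13 windows in all, and the 250 bases before each start were searched on both strands for the kB consensus decamer and for its 9-letter relative GGANTTTCC. Overlapping matches to the 2 motifs are shown as 1 run of capitals. At least 1 match lay in 7 of the 8 members, and in 9 of the 13 windows, against 5.93% of 35116 windows of the whole table. RELA was the member with windows but no match. The AP-1 heptamer TGANTCA was in none of the 13 windows and in 6.57% of all. The stretches around the matches are shown because a match to these motifs was found in 7 of the 8 members with a window. Capitals mark the matched letters, each stretch is written 5′ to 3′ on the gene's strand, and none reaches into the gene. NFKB2 and a second window of NFKBIZ also held matches, but within the gene's own span, and are not shown.
NFKB1 (chr4:102501290-102501329, plus strand): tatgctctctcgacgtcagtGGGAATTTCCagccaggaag
NFKBIA (chr14:35404801-35404999, minus strand): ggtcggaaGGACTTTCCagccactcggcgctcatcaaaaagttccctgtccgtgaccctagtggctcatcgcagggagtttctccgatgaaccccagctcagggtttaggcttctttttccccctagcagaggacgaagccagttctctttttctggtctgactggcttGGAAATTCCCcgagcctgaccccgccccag
NFKBIZ (chr3:101827747-101827796, plus strand): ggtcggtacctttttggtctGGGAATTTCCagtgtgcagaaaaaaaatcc
TNFAIP3 (chr6:137867172-137867213, plus strand): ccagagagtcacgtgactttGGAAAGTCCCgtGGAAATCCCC
BIRC3 (chr11:102317265-102317378, plus strand): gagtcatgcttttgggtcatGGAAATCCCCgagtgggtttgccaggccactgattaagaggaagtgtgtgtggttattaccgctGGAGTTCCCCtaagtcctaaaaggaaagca
ICAM1 (chr19:10270914-10270962, plus strand): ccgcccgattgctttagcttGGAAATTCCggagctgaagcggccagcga
NFKB1 and NFKBIZ held the same 10 letters, 49 and 223 bases before the start. NFKBIA held these letters on the opposite strand, 81 bases before its start. TNFAIP3 and BIRC3 shared another 10 letters, 55 and 199 bases before the start. NFKBIA, TNFAIP3 and BIRC3 each held a pair of matches. A match is a description of the sequence, and binding was not measured.

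The 4 libraries held 28451455 to 39797418 UMIs (unique molecule counts) in 788 to 2600 kept cells. The median UMIs per kept cell were 35109, 49686, 1330 and 21030 in the order given above, and the share of barcodes over the 5% mitochondrial limit, which were left out, was 24.1% to 28.8% in 3 libraries and 51.3% in shAPC day 7. The libraries of one day shared barcodes, 23 at day 3 and 25 at day 7, against 2 to 7 between days, so results are also given without them. APC, the targeted gene, stood at 16.1 CPM (counts per 1000000 UMIs) in shScr day 3 and 5.52 in shAPC day 3, and at 19.1 in shScr day 7 and 6.61 in shAPC day 7, so shAPC held 34.4% and 34.6% of the control level. The defining epithelial markers were close to absent, with at most 2 UMIs of EPCAM and 1 of CDH1 in any library and KRT8 at 9.57 to 19.4 CPM. Of the mesenchymal genes, VIM stood at 4010 to 5303 CPM, FN1 at 2758 to 3676 and COL1A1 at 927 to 1519. The cadherin gene CDH2 of the same list was low, at 3.66 to 7.69 CPM.

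Every member was at its highest in shAPC day 3, except that BIRC3 and NFKBIZ could not be told apart there from shScr day 7, and 7 of the 9 had their lowest level in shAPC day 7. The plot of levels by library shows this shape for each gene.

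**Figure D1:**
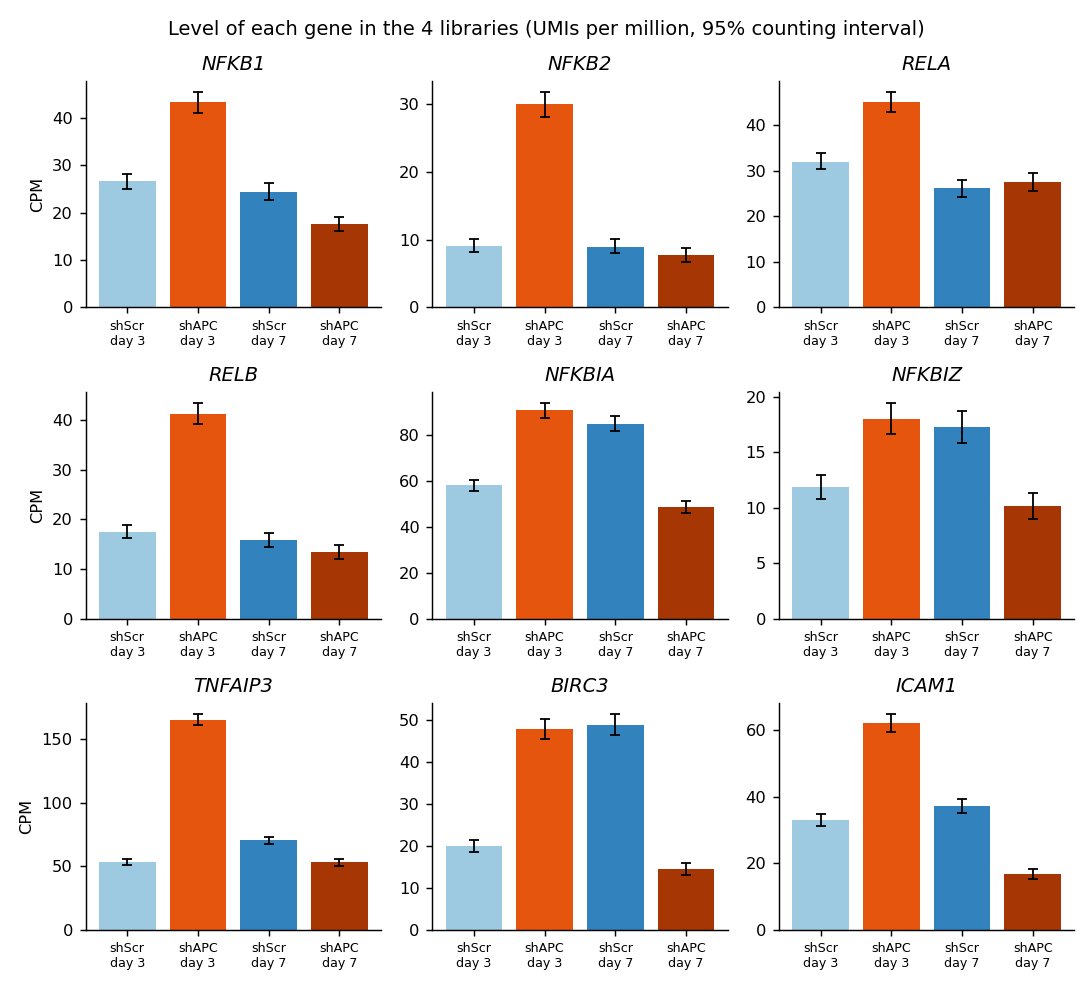
Level of each of the 9 genes (y axes, CPM; each panel has its own scale from 0) in the 4 libraries, with 1 library per bar and 95% Poisson intervals for counting error only. The shAPC day 3 bar is the tallest in 8 panels, and in the BIRC3 panel it stands level with shScr day 7.

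The subunits come first. NFKB1 encodes p105, the precursor of p50, and lies at chr4:102501330-102617302 on the plus strand (GENCODE coordinates, hg38). It stood at 26.5, 43.2, 24.3 and 17.5 CPM. The controls of both days could not be told apart (log2 ratio of day 7 to day 3 -0.12, interval -0.26 to 0.01), shAPC day 3 stood above them and shAPC day 7 below.

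NFKB2 (chr10:102394110-102402524, plus strand) encodes p100, the precursor of p52 in the slower arm. Its level was 9.10, 30.0, 8.998 and 7.70 CPM. A single library stood apart, shAPC day 3 at 3.29 times its control (interval 2.92 to 3.72), and the other 3 were neighbours whose ratios had intervals that held 0.

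RELA (chr11:65653599-65663090, minus strand), which encodes the p65 subunit that carries the activation domain, stood at 32.0, 45.1, 26.1 and 27.5 CPM. Its span over the libraries was 0.76 on the log2(CPM + 1) scale, the smallest of the 9 beside 0.77 for NFKBIZ, and its day 7 libraries could not be told apart.

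RELB (chr19:45001461-45038192, plus strand), the partner of p52, stood at 17.5, 41.3, 15.8 and 13.4 CPM. Its profile over the libraries was close to that of NFKB2, with shAPC day 3 at 2.36 times its control (interval 2.16 to 2.59) and the controls of both days within counting error.

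Among the inhibitors, NFKBIA (chr14:35401079-35404749, minus strand) encodes IkB-alpha, which pulls dimers back out of the nucleus. Its level was 58.1, 90.8, 85.1 and 48.5 CPM. Unlike the subunits, it was well above shScr day 3 in shScr day 7 too, at 1.47 times (interval 1.39 to 1.55).

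NFKBIZ (chr3:101827991-101861022, plus strand) encodes IkB-zeta, a nuclear IkB protein that helps switch on secondary targets. It stood at 11.8, 17.97, 17.2 and 10.1 CPM, so it was under the 20 CPM minimum in every library. Its profile was the nearest to that of NFKBIA of all pairs of members, and shAPC day 3 and shScr day 7 could not be told apart (log2 ratio 0.06, interval -0.11 to 0.23).

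TNFAIP3 (chr6:137867214-137883314, plus strand) encodes A20, an ubiquitin-editing enzyme that shuts off signalling above IKK. It was at 53.1, 165.6, 70.3 and 53.2 CPM. shAPC day 3 stood at 3.12 times its control (interval 2.97 to 3.28), and by day 7 the shAPC level could not be told apart from that of shScr day 3.

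The target genes had the widest swings at day 7. BIRC3 (chr11:102317484-102339403, plus strand) encodes cIAP2, an inhibitor of apoptosis and ubiquitin ligase in TNF receptor complexes. Its level was 19.9, 47.8, 48.9 and 14.4 CPM, a profile in which the middle libraries could not be told apart and shAPC day 7 was below all.

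ICAM1 (chr19:10271093-10286615, plus strand), the adhesion molecule that leukocyte integrins bind, stood at 33.1, 62.2, 37.2 and 16.7 CPM. No 2 of its libraries were within counting error of each other.

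The first comparison asked how APC knockdown and the control differed at day 3. All 9 members were higher in shAPC, each with an interval clear of 0, by log2 ratios from 0.49 for RELA to 1.72 for NFKB2. The median of the members was 0.91, and that of all 5175 genes of at least 20 CPM in either library was 0.28, since 79.2% of those genes lay above 0. Counting a gene as past the fold when log2(CPM + 1) differed by at least 1, NFKB2, RELB, TNFAIP3 and BIRC3 were past it, 4 of the 8 members that met this minimum (here called tested), and 3.86% of all genes were past it upwards. With the all-gene median subtracted, 2 members were past it, NFKB2 and TNFAIP3, against 2.13% of all genes. With TMM scaling the ratios stayed above 0 for all 9, with the lowest at 0.11 for RELA and 0.22 for NFKBIZ. Counts of 2 members past the fold were also found with TMM and without the deepest 5% of cells. With TMM the upward count over all genes fell as well, as given in the last section. NFKB1 without the shared barcodes was 0.51 in place of 0.70, and the same count of 4 members was past the fold.

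At day 7 the direction was the other way for most members. BIRC3 was lower in shAPC by a log2 ratio of -1.77 (interval -1.93 to -1.61), ICAM1 by -1.15 (interval -1.31 to -0.999), NFKBIA by -0.81 (interval -0.90 to -0.72) and NFKBIZ by -0.77 (interval -0.98 to -0.56). NFKB1, TNFAIP3 and RELB were lower by -0.47, -0.40 and -0.24, with intervals clear of 0 (that of RELB held 0 without the ATF3 or the IFNB1 cells described further on), while those of NFKB2 (-0.23) and RELA (0.07) held 0. The median of the members was -0.47 and that of all 4573 genes tested -0.10, of which 37.7% lay above 0. BIRC3 and ICAM1 were past the fold, 2 of the 6 members tested, against 1.77% of all genes, and the same 2 with the all-gene median subtracted, against 1.27%. The log2 ratios of the subunits lay within 0.47 of 0, and the inhibitors and targets spread from -0.40 to -1.77.

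**Figure D2:**
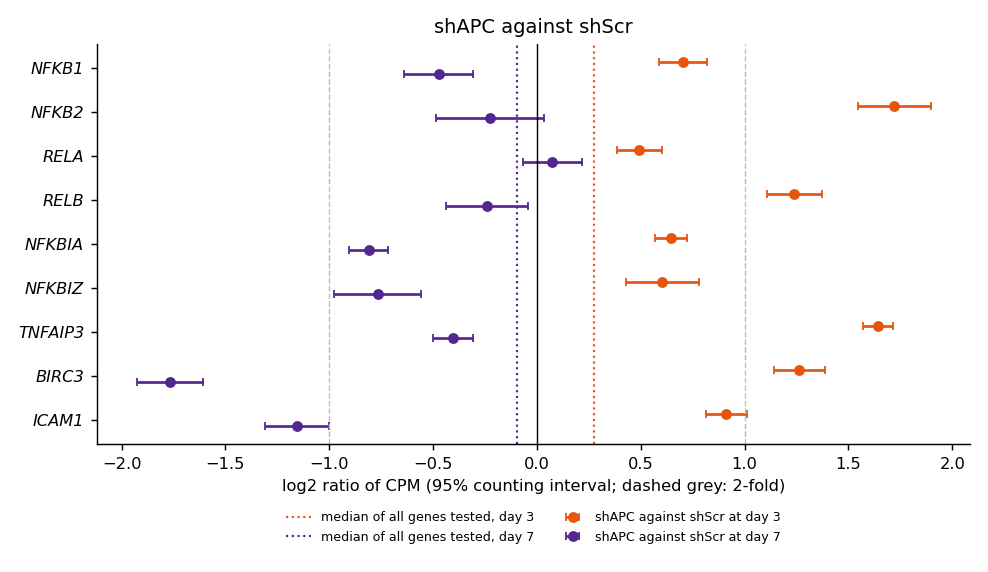
Log2 ratio of CPM, shAPC to shScr (x axis), for the 9 genes (y axis) at day 3 and day 7, with 95% counting intervals, the all-gene medians as dotted lines and the 2-fold marks dashed. Every day 3 point lies right of 0, and 8 of the 9 day 7 points lie left of it, with BIRC3 and ICAM1 past the mark.

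Set over time within each shRNA, which uses the same 4 libraries again, the members went different ways in the control. In shScr, BIRC3 at day 7 was 2.46 times its day 3 level (interval 2.25 to 2.68) and NFKBIA, NFKBIZ and TNFAIP3 were 1.47, 1.46 and 1.32 times theirs, ICAM1 was 1.13 times, NFKB1, NFKB2 and RELB had intervals that held 0, and RELA was lower (log2 ratio -0.29, interval -0.42 to -0.17). BIRC3 was past the fold upwards, 1 of 6 tested, against 0.329% of all genes, and 0.263% with the all-gene median subtracted. The sign of TNFAIP3 turned when each cell counted equally, to -0.21 on the log2 scale, and that library is the one with a median of 1330 UMIs per cell.

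In shAPC all 9 were lower at day 7 than at day 3, from -0.71 for RELA to -1.96 for NFKB2. Their median was -1.63 against -0.34 over all 5176 genes tested, of which only 18.2% lay above 0. NFKB1, NFKB2, RELB, TNFAIP3, BIRC3 and ICAM1 were past the fold downwards, 6 of 8, against 5.78% of all genes, and 5 with the all-gene median subtracted, against 2.43%. TNFAIP3 at day 7 stood at 32.1% of its day 3 level, BIRC3 at 30.1%, ICAM1 at 26.9% and NFKB2 at 25.7%.

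**Figure D3:**
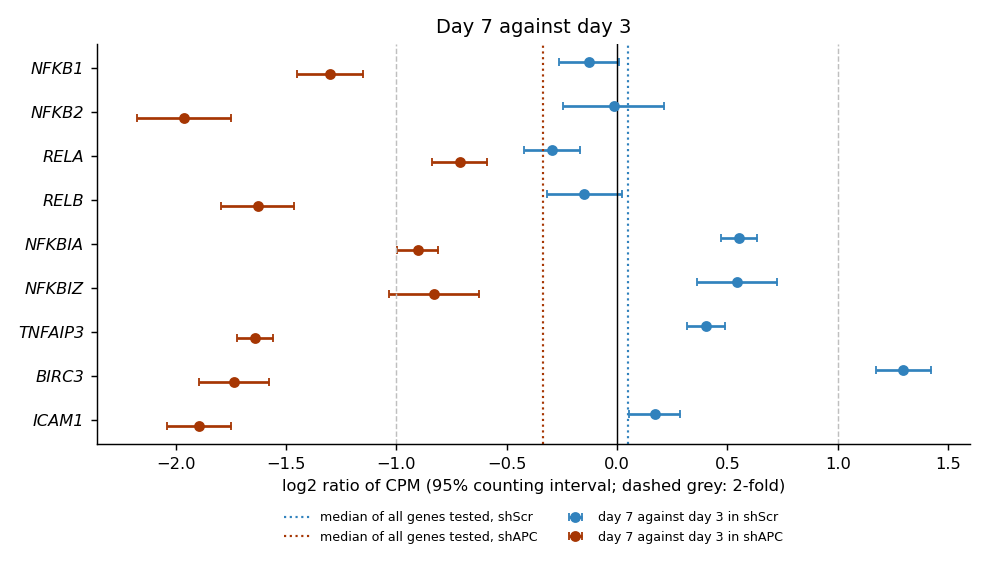
Log2 ratio of CPM, day 7 to day 3 (x axis), for the 9 genes (y axis) in shScr and in shAPC, with 95% counting intervals, the all-gene medians as dotted lines and the 2-fold marks dashed. In shAPC all 9 points lie left of 0, and in shScr only BIRC3 lies past the 2-fold mark.

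The day 3 excess was not spread evenly over the cells. ATF3, a stress-induced transcription factor, was at 1.03, 44.7, 15.4 and 3.37 CPM in the 4 libraries, and among cells of at least 2000 UMIs a UMI of ATF3 was held by 125 of 673 in shAPC day 3 (18.6%), against 3.86% to 4.26% in the other libraries. Those 125 cells held 24.7% of the UMIs of their library but 70.6% of those of BIRC3, 65.0% of NFKB2, 62.2% of RELB and 61.5% of TNFAIP3. In them NFKB2 stood at 78.9 CPM, against 13.9 in the 548 cells without an ATF3 UMI. BIRC3 stood at 136.9 against 18.7 and TNFAIP3 at 413 against 84.7. NFKBIA stood at 191 against 58.0, whereas RELA differed less, at 58.4 against 40.7. The cells with ATF3 were also deeper, with a median of 64383 UMIs against 52487. The shares of cells with an ATF3 UMI were counted without thinning, and depth differed between the libraries.

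With the ATF3 cells left out of both day 3 libraries, no member was past the fold, against 1.39% of all genes upwards. This step was an alternative chosen after these levels had been seen. NFKB2, NFKBIZ and BIRC3 were then under the 20 CPM minimum in both libraries, so they could not be called. Of the cells of at least 2000 UMIs, the step took 18.6% in shAPC and 3.89% in shScr, and shallower cells were left out as well. The shAPC cells taken were already seen to be high in the members, so a smaller difference was bound to follow. The values describe the remaining cells only. The log2 ratio of shAPC to shScr was then 0.68 for TNFAIP3 (interval 0.59 to 0.77) and 0.64 for NFKB2 (interval 0.43 to 0.86), and RELA, RELB, NFKBIZ and ICAM1 lay between 0.18 and 0.35 with intervals clear of 0. NFKBIA at 0.01, BIRC3 at -0.03 and NFKB1 at -0.13 had intervals that held 0. The median of the 9 was 0.26, and that of all 4906 genes tested was 0.19. At day 7 the same step left BIRC3 at -2.06 and ICAM1 at -1.10, against -1.77 and -1.15 over all kept cells, shallower ones included.

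**Figure D4:**
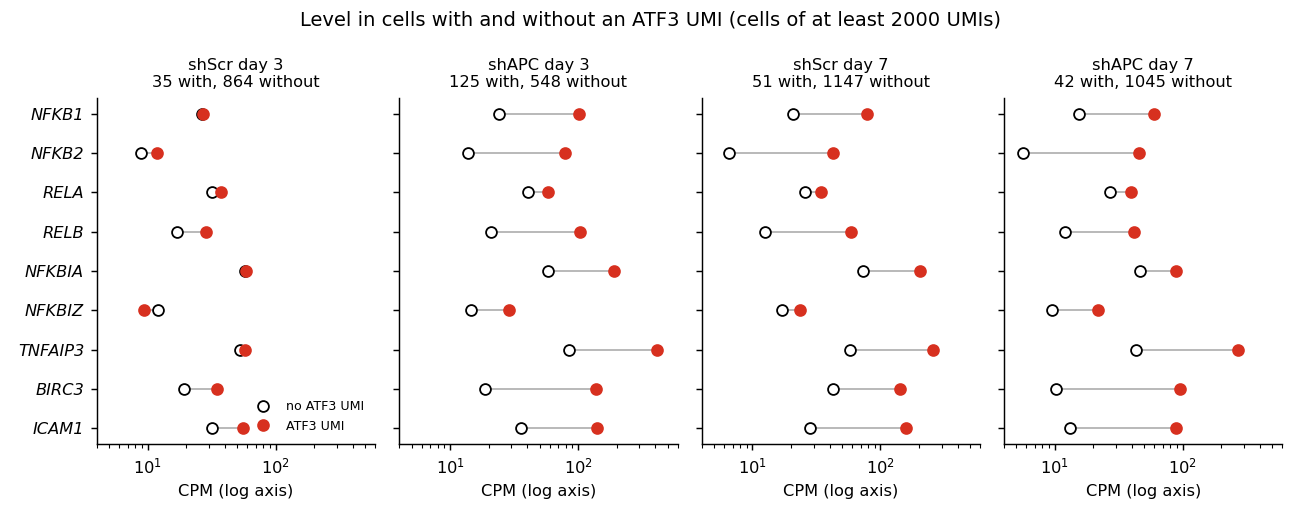
Level (x axes, CPM, log scale) of the 9 genes (y axis) in cells with an ATF3 UMI (filled) and without one (open), by library, with the cell numbers above each panel. In shAPC day 3 TNFAIP3 stood at 413 in the 125 cells with ATF3 and at 84.7 in the 548 without. In shScr day 3, where ATF3 itself was lowest, the 35 cells with ATF3 lay near the rest for NFKB1 and NFKBIA.

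The cells with an ATF3 UMI were higher in the day 7 libraries as well. In shScr day 7, 51 such cells held TNFAIP3 at 256 CPM against 58.3 in the rest, and in shAPC day 7, 42 held it at 268 against 42.7. In shScr day 3 the 35 cells differed from the rest for RELB, BIRC3 and ICAM1, by log2 ratios of 0.74 to 0.87. The intervals of the other 6 members held 0. ATF3 was lowest in that library, so a UMI of it need not mark the same kind of cell there as in shAPC day 3. Among cells of at least 2000 UMIs, the 16 of shAPC day 3 that held a UMI of IFNB1, the interferon beta gene, were then left out. The day 3 log2 ratios without them lay between 0.47 for RELA and 1.57 for NFKB2. The summed level of 10 interferon genes was 658, 3030, 672 and 353 CPM in the 4 libraries. It was highest in shAPC day 3 and lowest in shAPC day 7, as for most members. Its part in the result was not tested.

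Cells thinned to 2000 UMIs each, with 115 to 1402 shallower cells left out per library, were compared next. The share of cells with a UMI of TNFAIP3 was 7.45%, 14.9%, 9.77% and 7.18% in the usual order, with exact binomial intervals of 5.82 to 9.37% and 12.3 to 17.8% for the day 3 libraries. For NFKBIA it was 11.2%, 12.04%, 13.9% and 7.08%, and at day 3 the intervals of the shares overlapped. Its mean UMIs per thinned cell were 0.126 in shScr day 3 and 0.159 in shAPC day 3. The summed level, which differed 1.56-fold, covers all kept cells and gives deeper cells more weight. Without thinning, at a median of 35109 UMIs, 41.6% of shScr day 3 cells held a UMI of TNFAIP3 and 56.4% one of NFKBIA. Of 12 genes of blood, liver, pancreas, nerve and vessel cells, which this line should lack, the highest share was HBB in shAPC day 3, at 0.297% of cells thinned to 2000 UMIs and 2.16% unthinned at a median of 49686 UMIs. The variance over the mean of the thinned UMIs was higher in shAPC day 3 than in shScr day 3 for TNFAIP3 (2.73 against 1.33), NFKBIA (2.21 against 1.11) and RELB (1.65 against 1.07). It was near 1 in both for NFKB1 (1.07 and 1.07), RELA (0.98 and 1.19) and NFKBIZ (1.11 and 1.05), so at this depth the unevenness was not detectable for every member. For TNFAIP3, 20 cells (2.97%) held 3 or more of its UMIs against 1. Cells with UMIs of 3 or more of the 9 genes made up 7.13% of shAPC day 3 and 1.38% to 2.34% of the other libraries.

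In cells thinned to 20000 UMIs, the rank correlations of the 36 pairs of members had medians of 0.11, 0.24, 0.11 and 0.12 over 689, 554, 799 and 781 cells, and the highest was 0.42, for TNFAIP3 with BIRC3 in shAPC day 3. Cells of one library share its handling and its depth, and most of these values are too weak in sparse counts to count as a finding.

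Barcodes over the mitochondrial limit, which the filter removes, went apart from the kept cells in shAPC day 3. There BIRC3 stood at 7.20 CPM against 47.8 in kept cells, NFKB2 at 8.10 against 30.0, ICAM1 at 24.1 against 62.2 and TNFAIP3 at 61.1 against 165.6, whereas RELA was at 44.8 against 45.1. In shScr day 3 the removed barcodes held ICAM1 at 55.8 against 33.1, the opposite way. NFKB2, NFKBIA, TNFAIP3 and BIRC3 were also higher there, with intervals clear of 0. Among removed day 3 barcodes, shAPC was below shScr for BIRC3 (7.20 against 24.9 CPM), ICAM1 (24.1 against 55.8) and NFKB2 (8.10 against 12.9). It was lower too for NFKBIA (42.9 against 66.1), NFKBIZ (10.1 against 13.9) and RELB (15.8 against 18.6). TNFAIP3 was level (61.1 and 60.8), and NFKB1 (30.4 against 28.1) and RELA (44.8 against 31.3) were higher in shAPC. With all deposited barcodes the median log2 ratio of the members at day 3 was 0.68.

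The other genes of the pathway were taken from 6 lists of 74 genes by role. At day 3, 7 of the 40 tested were past the fold upwards in shAPC and 1 downwards, beside 3.86% of all genes upwards and 0.425% downwards. Their median was 0.46 against 0.28 over all genes. With TMM scaling 3 of 38 were past it upwards and 1 downwards. The upward count over all genes fell with TMM too, and the downward count rose, as given in the last section. At day 7, 0 of the 29 tested were past it upwards and 5 downwards, beside 1.77% of all genes downwards, with a median of -0.30 against -0.10 over all genes. In shScr over time none of 31 was past it, and in shAPC over time 11 of 39 were, all downwards, beside 5.78% of all genes.

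**Figure D5:**
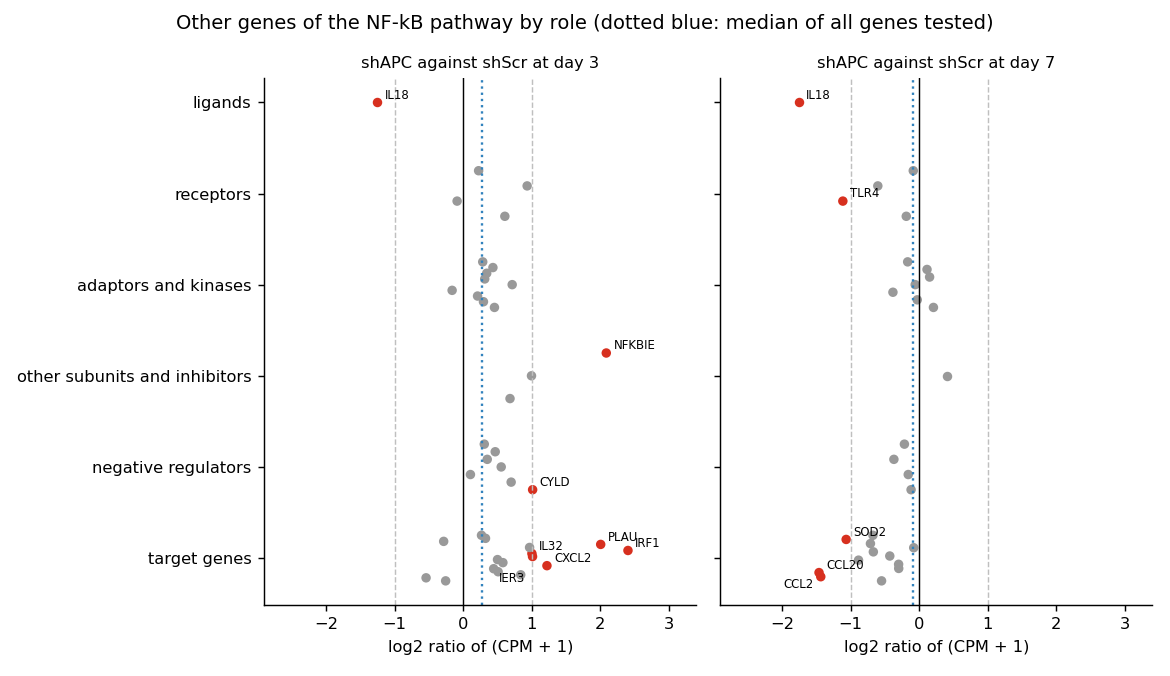
Log2 ratio of CPM + 1, shAPC to shScr (x axes), for the pathway genes of at least 20 CPM in either library, by role (y axis), at day 3 (left) and day 7 (right). Red points are at least 2-fold apart and named; NFKBIE, IRF1 and PLAU lie farthest right at day 3, and IL18 lies left of the mark at both days.

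Among the ligands, TNF was at no more than 1.40 CPM and IL1B at no more than 0.83 CPM in any library. IL18, an epithelial cytokine of the IL-1 family, was the ligand that passed the minimum, at 23.6, 9.33, 29.4 and 7.98 CPM, so it was lower in shAPC at both days. IL1A had 6, 172, 31 and 5 UMIs in the 4 libraries, which is 4.92 CPM in shAPC day 3. At day 3, 7 of the 8 ligands were higher in shAPC and IL18 was lower, and at day 7, 2 of the 8 were higher. Of all genes tested, 79.2% lay above 0 at day 3 and 37.7% at day 7. The 7 ligands were all under the 20 CPM minimum at day 3, and the intervals of some held 0.

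Of the receptors, 4 of 9 passed the minimum at each day. None was past the fold at day 3, and TLR4, the lipopolysaccharide receptor, was past it downwards at day 7, at 24.7 CPM in shScr and 10.9 in shAPC. Of the 22 adaptors and kinases, with the IKK and TAK1 complexes, 9 were tested at day 3 and 7 at day 7, and none of those was past the fold, with medians of 0.31 at day 3 and -0.03 at day 7, close to those of all genes.

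Of the 5 remaining subunits and inhibitors, NFKBIE, which encodes IkB-epsilon, was at 7.01, 33.0, 9.80 and 6.502 CPM, a log2 ratio of 2.24 at day 3 (interval 2.05 to 2.43). It was past the fold, while REL, NFKBIB, NFKBID and BCL3 were not, of which REL and NFKBID did not reach the minimum. NFKBIB, at 9.90 and 20.7 CPM at day 3, missed the fold narrowly. Its log2 ratio was 1.07 without the pseudocount and 0.996 with it. Of the 9 negative regulators, CYLD, a deubiquitinase that removes ubiquitin chains from signalling proteins, was past the fold at day 3, at 15.7 and 32.7 CPM.

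Among the 21 target genes, 5 of the 16 tested were past the fold upwards at day 3, beside 3.86% of all genes, and 3 of the 12 tested downwards at day 7, beside 1.77%. IRF1, a transcription factor of the interferon response, stood at 9.85, 56.4, 16.0 and 9.81 CPM, and PLAU, which encodes urokinase, at 18.6, 77.6, 12.2 and 16.0. The chemokine gene CXCL2 stood at 17.6, 42.4, 34.3 and 18.1 CPM. IER3 and IL32 were the other 2 past it at day 3. The day 7 genes were the chemokines CCL20 (27.1 CPM in shScr, 9.21 in shAPC) and CCL2 (110.9 and 40.4) and SOD2, the mitochondrial superoxide dismutase (253.8 and 120.8, from the row with more UMIs of the 2 that carry its symbol). CCL2 was lower in shAPC at day 3 too (log2 ratio -0.55).

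Across all 5300 genes of at least 20 CPM in a library, the nearest profiles over the 4 libraries were sought by the Euclidean distance of centred log2(CPM + 1) values. With 4 points per gene such nearness is a loose description. For NFKB1 the nearest were NUPR1, TRIM25 and VPS25, for NFKB2 HLA-B, SERTAD1 and PARP12, and for RELB CSRNP1, ZNFX1 and PARP14. TNFAIP3 lay nearest to PPP1R15A, KLF4 and TSC22D1, at distances of 0.10 to 0.13. BIRC3 had CCL20 nearest, at 0.32, then B2M and FILIP1L at 0.55 and 0.56, so few genes shared its profile. ICAM1 lay nearest to DDX60L, PSMB9 and TFPI2, at 0.23 to 0.33. Between members the nearest pair was NFKBIA with NFKBIZ, at 0.089, and the farthest RELA with BIRC3, at 1.39.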

How the data were processed

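Single-cell RNA-seq of HCEC 1CT cells was deposited as 1 count matrix per library, with UMI counts per gene and barcode that the authors made with Cell Ranger and STAR on GRCh38. The labels give version 3.0.2, but the matrix headers name 3.0.2 in the shScr libraries and 3.0.0 in the shAPC libraries, so the version cannot be told apart from the shRNA. The labels name a 3' kit of version 2 and a retrovirus, and the methods another kit version and a lentivirus. Doublets were not called. Barcodes were kept with at least 200 genes and 500 UMIs, the limits in the study's methods. They also had to hold under 5% mitochondrial UMIs, a limit given in the legend of a supplementary figure. This left 1116, 788, 2600 and 1478 of 1471, 1047, 3652 and 3035 barcodes (shScr and shAPC at day 3, then at day 7). The study's final cell numbers differ from these in every library, lower in 3 and higher in shAPC day 7, so the cells kept here are not the study's set. UMIs were summed over kept cells per library and divided by the library's total (CPM), without rounding or imputation. Levels have exact Poisson intervals, ratios exact binomial ones given the summed UMIs, and shares of cells Clopper-Pearson ones. Counting intervals and floors cover counting error only.

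A gene was tested in a pair of libraries when 1 of them held at least 20 CPM, and was past the fold at a difference of 1 in log2(CPM + 1). The log2 ratios printed for members are without the pseudocount. The 9 members and the lists were chosen with earlier results of these data known. Genes named were the members, APC, of each pathway list at most 3 genes with the largest ratio past the fold in each shAPC to shScr comparison, and the 3 nearest profiles. Named beyond that rule, after values were seen, were IER3, IL32, IL1A, TNF, IL1B, REL, NFKBIB, NFKBID and BCL3 from the lists. EPCAM, CDH1, KRT8, VIM, FN1, COL1A1, CDH2 and HBB were named so too, as checks of the cells, and ATF3 and IFNB1, by which cells were split. Gene positions came from GENCODE 44 and promoters from RefSeq, where the AP-1 search was added to the planned kB motifs. The fold calls and intervals were tested on simulated counts. Alternatives were TMM from edgeR 4.0.16, size factors from DESeq2 1.42.0, the all-gene median subtracted, other cell filters, minimums and pseudocounts. The numbers were computed in Python 3.11.15 with scipy 1.17.1.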

Additional observations from a re-analysis of the deposited data

Results flagged for a closer look

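The log2 ratio of shAPC to shScr had opposite signs at day 3 and day 7, with counting intervals clear of 0 at both, for 7 of the 9 genes. Of all genes tested, 79.2% lay above 0 at day 3 and 37.7% at day 7, and opposite signs were not counted over all genes. With 1 library per group the difference between days was not tested. The ratio at day 7 minus that at day 3 was -3.03 for BIRC3 (interval -3.23 to -2.83), -2.07 for ICAM1 and -2.04 for TNFAIP3. For RELB it was -1.48, for NFKBIA -1.46, for NFKBIZ -1.37 and for NFKB1 -1.18. Among cells of at least 2000 UMIs without ATF3, 3 of the 7 had intervals clear of 0 in opposite directions (NFKBIZ, TNFAIP3 and ICAM1). Among those without an IFNB1 UMI 6 did, all but RELB. NFKB2, at -1.94, and RELA, at -0.42, were not among the 7 because their day 7 intervals held 0. The shScr day 7 library had a median of 1330 UMIs per cell, the lowest of the 4, and the part of that depth in these values was not tested.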

How the results depend on the processing

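No paired analysis was possible because each group had 1 library and no replicate numbers. Of 414 member ratios under alternatives 265 stayed within the main counting interval, and the rest moved. The sign turned in 5. Of these BIRC3 at day 3 (-0.034) had been past the fold. It and NFKB1 (-0.13) turned in cells of at least 2000 UMIs without an ATF3 UMI. There the median of the members was 0.26 and 0 were past the fold. TNFAIP3 over time in shScr (-0.21), RELB over time in shScr (0.017) and NFKB2 at day 7 (0.087) turned with each cell weighted equally, the last 2 with main intervals that held 0. Of 108 shares of cells at other depths, 103 moved. With TMM, DESeq2 size factors, the all-gene median subtracted and totals without mitochondrial and ribosomal protein genes, in that order, the members' median was 0.53, 0.55, 0.64 and 0.80 at day 3 and -1.32, -1.32, -1.29 and -1.45 over time in shAPC. The first 3 left 2 members past the fold at day 3, and the 4 left 4, 4, 4 and 5 pathway genes at day 3 and 5, 5, 4 and 7 over time in shAPC, against 8 and 11. All deposited barcodes and a 10% mitochondrial limit gave medians of 0.68 and 0.71 at day 3, with 5 pathway genes each. Without the deepest 5% of cells the medians were 0.60 at day 3, 0.032 over time in shScr and -1.15 over time in shAPC, with 2 members and 4 pathway genes past the fold at day 3 and 6 pathway genes over time in shAPC. Without shared barcodes the day 3 median was 0.78. With each cell weighted equally the medians over time were 0.017 in shScr and -1.33 in shAPC, with 1 pathway gene past the fold in shScr. With no minimum, 14 pathway genes were past it at day 3, and 1 and 20 over time in shScr and shAPC. A minimum of 100 CPM left 1 member and 2 pathway genes at day 3, 0 members and 2 pathway genes at day 7, 0 members over time in shScr, and 1 member and 3 pathway genes over time in shAPC, because fewer genes were tested. For the rest the cause was not tested. At day 3, genes past the fold over all genes numbered 200 upwards and 22 downwards, and 83 and 67 with TMM, 84 and 60 with DESeq2 size factors and 110 and 45 with the all-gene median subtracted. Over time in shAPC they numbered 3 upwards and 299 downwards, and 28 and 126 with TMM.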
